A study of Drosophila melanogaster with 12 samples.

Results

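The genes described here encode the subunits of the proteasome, the protease complex that degrades proteins tagged with ubiquitin. They were chosen by symbol, as the genes whose names begin with *Prosalpha*, *Prosbeta*, *Rpt* and a number or *Rpn* and a number. Of 17208 genes listed for each of the 2 tissues, 48 carry such a symbol. In 33 of them the name ends with the number (standard subunits), and in the other 15 a T or an R follows it, as in *Prosalpha6T* or *Rpt3R* (paralogues). The standard symbols name 32 subunits, because *Prosalpha1* stands both for FBgn0263121 and for FBgn0050382. The later annotation BDGP6.54 calls the second gene *Prosalpha1R*, and it is described with the paralogues under that name.

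RNA was sequenced from pools of imaginal discs of late *Drosophila* larvae, in 12 libraries. Each eye library held 40 eye antennal discs, with 3 libraries of GMR-Gal4 > w1118 and 3 of GMR-Gal4 > UAS-*fuss*. Each wing library held 30 wing discs, with 3 libraries of nub-Gal4 > w1118 and 3 of nub-Gal4 > UAS-*fuss*. All groups thus carried a Gal4 driver, GMR-Gal4 in cells behind the morphogenetic furrow of the eye disc and nub-Gal4 in the wing pouch, while the pools held whole discs. The source field of the eye libraries names nub-Gal4, but their genotype field and the methods of the study name GMR-Gal4, which was used. Per tissue and gene a mean normalised count was deposited, that is, a read count scaled for library depth and averaged over the libraries of both genotypes. This mean is the level reported below. The authors' own comparison of *fuss* overexpression with control, deposited with its errors and p-values, was not used, and the genotypes are not compared here. The mean itself carries no spread between libraries, so no difference between genes or tissues below was tested.

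The proteasome consists of a barrel-shaped core particle and a regulatory particle that caps it. The core is built from rings of alpha subunits, which form the gate, and rings of beta subunits, which hold the protease sites inside. The regulatory particle has a base, with a ring of ATPases (Rpt subunits) that unfold the substrate and feed it into the core, and a lid, which removes the ubiquitin chain. In the rings of the core every subunit occurs in a fixed number of copies. The genes of the complex are known to be regulated together in many organisms. In *Drosophila* several subunits have a paralogue that is known for expression in the testis, where a form of the core with the subunit Prosalpha6T is needed in the male germline.

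Levels are given below for the eye disc pools first and the wing disc pools second. Summed over all genes the mean normalised counts came to 29977881 for eye discs and 34175754 for wing discs, and the 33 standard genes held 0.753% and 0.728% of these sums. The depth of single libraries is unknown. The eye disc markers *ey*, *toy*, *so*, *eya*, *gl* and *chp* lay between 2830 and 12821 in eye discs and between 51.3 and 1135 in wing discs. The wing disc markers *vg*, *nub*, *pdm2*, *ap* and *pnr* lay between 11.7 and 1025 in eye discs and between 721 and 13439 in wing discs. The markers thus followed the tissue labels, with the smallest difference for *pnr* (1025 and 1685). Of 4 haemocyte and 3 fat body markers all were at 10 or more in both tissues, with summed levels of 8335 and 85000 in eye discs and 2855 and 244970 in wing discs. All 4 tracheal and 3 muscle or adepithelial markers also reached 10, with sums of 27427 and 2606 in eye discs and 28384 and 7346 in wing discs. The tracheal sums rest on *serp* and *verm*, while *trh* (175 and 2273) and *btl* (177 and 535) were higher in wing discs. The part of these cell types in the proteasome levels was not tested. The *fuss* gene itself stood at 16643 and 10363, which includes the libraries with the transgene.

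All 32 standard subunits were abundant in both tissues. In eye discs they ranged from 4698 for *Rpn12* to 13930 for *Rpn2*, with a median of 6670. In wing discs the lowest and highest were again *Rpn12* (4914) and *Rpn2* (15584), around a median of 7392. Their percentiles among the genes above 0 ran from 91.1 to 97.7 in eye discs and from 90.1 to 97.6 in wing discs. Long transcripts give more reads, so the subunits were compared with each other mainly after division by the coding length in kilobases. On this scale the lowest subunit was *Rpn1* in both tissues (4080 and 4459 per kilobase), and the highest was *Prosalpha1* (13451 and 15280 per kilobase). The whole set of 32 genes thus lay within a 3.30-fold range in eye discs and a 3.43-fold range in wing discs.

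**Figure D1:**
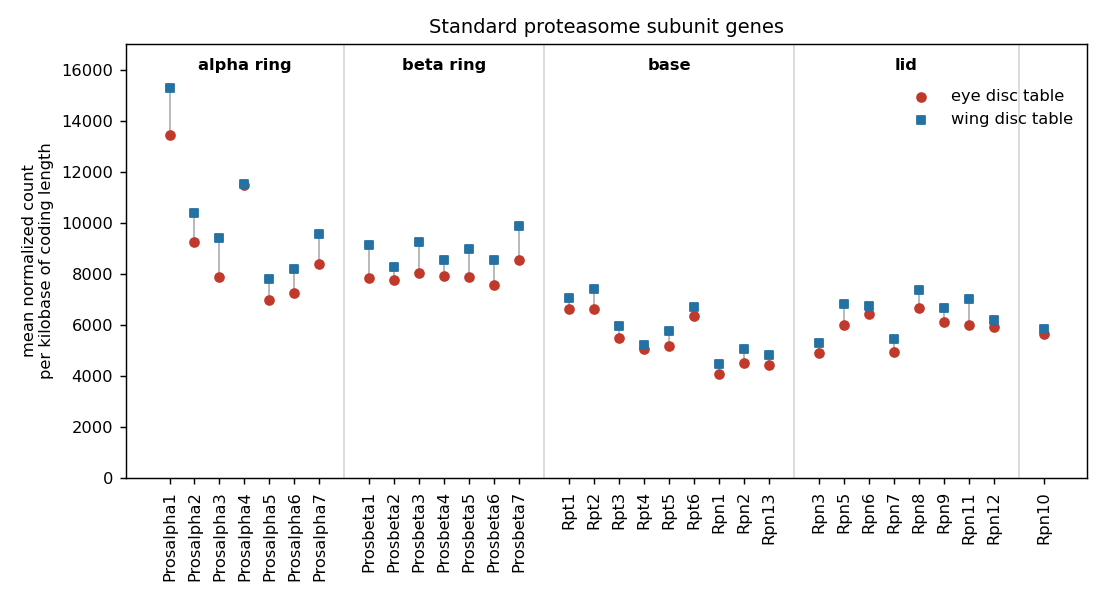
Authors' mean normalised count per kilobase of coding length (vertical axis, from 0) for each of the 32 standard subunits (horizontal axis), with circles for the eye disc table, squares for the wing disc table and a grey line joining both values of a gene. The tables were normalised separately, so the offset between circles and squares is not a difference in expression. The alpha and beta subunits stand above those of base and lid, and *Prosalpha1* and *Prosalpha4* stand above the other alpha subunits.

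The 7 alpha subunits, whose ring gates the entry to the core, had the widest range per kilobase of the 4 groups alpha ring, beta ring, base and lid. *Prosalpha1* (13451 and 15280 per kilobase), *Prosalpha4* (11470 and 11501) and *Prosalpha2* (9233 and 10399) held the first 3 ranks in both tissues. The rank of *Prosalpha4* depends on the length used. Per kilobase of the longest transcript it stood in wing discs (7306) below *Prosalpha2* (7935), *Prosalpha3* (7663) and *Prosalpha7* (7441). The lowest alpha subunit was *Prosalpha5*, at 6976 per kilobase in eye discs and 7790 in wing discs. *Prosalpha6* lay just above it at 7238 and 8184 per kilobase. With the longest transcript as divisor *Prosalpha6* (5662 and 6402) lay below *Prosalpha5* (5777 and 6451). *Prosalpha3* (7875 and 9414) and *Prosalpha7* (8397 and 9568) lay in between. From *Prosalpha5* to *Prosalpha1* the alpha ring spanned a 1.93-fold range in eye discs and a 1.96-fold range in wing discs.

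The 7 beta subunits were more even, with all of them between 7551 and 8525 per kilobase in eye discs and between 8276 and 9889 in wing discs. The active sites lie in *Prosbeta1* (caspase-like), *Prosbeta2* (trypsin-like) and *Prosbeta5* (chymotrypsin-like). *Prosbeta1* stood at 7817 per kilobase in eye discs and 9133 in wing discs. *Prosbeta2* stood at 7743 and 8276 per kilobase. *Prosbeta5* stood at 7889 and 8970 per kilobase. These 3 genes differed among themselves by 1.02-fold in eye discs and 1.103-fold in wing discs. Their median (7817 and 8970 per kilobase) was close to that of the 4 beta subunits without an active site (7961 and 8885). This depends on the length used. Per kilobase of the longest transcript the medians were 6111 and 6663 against 5640 and 6343. On that scale all 3 genes stood above the other 4 in eye discs (lowest 5860, highest of the others 5847). Of the 4 subunits without an active site *Prosbeta7* was the highest per kilobase of coding length in both tissues (8525 and 9889). *Prosbeta3* followed at 8020 and 9234. With the longest transcript as divisor *Prosbeta4* (5847) was above *Prosbeta7* (5642) in eye discs. *Prosbeta4* (7903 and 8531) and *Prosbeta6* (7551 and 8536) made up the rest of the ring.

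In the base the 6 ATPase genes *Rpt1* to *Rpt6* ranged from 5067 to 6610 per kilobase in eye discs and from 5194 to 7403 in wing discs. *Rpt1* (6610 and 7056) and *Rpt2* (6604 and 7403) were the higher ones and *Rpt4* (5067 and 5194) the lowest in both tissues. *Rpt6* stood at 6366 and 6717 per kilobase, *Rpt3* at 5483 and 5942 and *Rpt5* at 5192 and 5779. With the longest transcript as divisor the order in eye discs changed. *Rpt5* (4097) was then below *Rpt4* (4119), and *Rpt6* (5509) was above *Rpt2* (5352). Per kilobase of coding length the non-ATPase subunits of the base were lower than each of the ATPases. For *Rpn1* and *Rpn2* this depends on the length used. Before division by length *Rpn1* (11250 and 12295) and *Rpn2* (13930 and 15584) stood above all ATPase genes. Per kilobase of the longest transcript *Rpn2* in wing discs (4567) stood above *Rpt4* (4222) and *Rpt5* (4561). *Rpn13* stood below all ATPase genes on each of these scales. *Rpn1*, a large scaffold that binds shuttle receptors, stood at 4080 and 4459 per kilobase. *Rpn2*, the scaffold on which Rpn13 sits, stood at 4512 and 5048 per kilobase, although its level before division by length was the highest of all. *Rpn13*, a ubiquitin receptor, stood at 4431 and 4834 per kilobase. *Rpn10*, the ubiquitin receptor between base and lid, had 5631 and 5831 per kilobase.

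The 8 lid genes ranged from 4893 to 6656 per kilobase in eye discs and from 5288 to 7359 in wing discs. *Rpn11*, the metalloprotease that cuts the ubiquitin chain from the substrate, had 5985 per kilobase in eye discs and 7003 in wing discs. Its partner *Rpn8* was the highest lid gene in both tissues per kilobase of coding length, at 6656 and 7359. With the longest transcript as divisor *Rpn5* (5401) was above *Rpn8* (5366) in wing discs. Undivided, *Rpn5* (9008 and 10245) was above *Rpn8* (7148 and 7904) in both tissues. Of the scaffold subunits of the lid *Rpn6* stood at 6414 and 6736 per kilobase and *Rpn9* at 6111 and 6642. *Rpn5* was below both in eye discs (5981) and above both in wing discs (6803). Divided by the longest transcript it was above both in eye discs too (4748 against 4624 and 4438). *Rpn12* had 5932 and 6205 per kilobase. *Rpn7* (4920 and 5432) and *Rpn3* (4893 and 5288) were the lower members in both tissues. Which neighbours in this order differ beyond the spread between libraries cannot be said from a mean over libraries.

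Per kilobase of coding length all 14 core genes lay above all 18 genes of the regulatory particle, in both tissues. The median was 7896 for the core and 5781 for the regulatory particle in eye discs, and 9183 and 6074 in wing discs. The core thus stood 1.37-fold above the regulatory particle in eye discs and 1.51-fold in wing discs. The core genes are also shorter, with coding lengths from 603 to 846 bases against 792 to 3087 bases. Across the 32 genes the level per kilobase was lower the longer the coding sequence (Spearman's rho of -0.79 and -0.77). Across all 8856 genes with a coding length and at least 10 in both tissues rho was -0.17 and -0.18. Coding length is the divisor of this level, so a negative rho is partly built in. Undivided, the levels of the 32 genes rose with coding length (rho of 0.64 and 0.61). They spanned only a 2.96-fold and a 3.17-fold range, so their rho per kilobase is not comparable with that of all genes. These coefficients describe genes of the same libraries, which are not independent. *Rpn12*, with 792 coding bases the only regulatory gene inside the length range of the core, stood at 5932 and 6205 per kilobase. The 5 core genes from 792 to 846 bases lay between 7238 and 8525 per kilobase in eye discs and between 8184 and 9889 in wing discs. Divided by the longest annotated transcript, which includes untranslated ends, the number of core genes above the highest regulatory gene was 10 of 14 for the eye disc pools and 14 of 14 for the wing disc pools. Without any division by length the core median of these 14 genes was 0.887-fold and 0.914-fold that of the regulatory particle, so the direction depends on this step. The part of transcript length in the difference was not tested further.

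**Figure D2:**
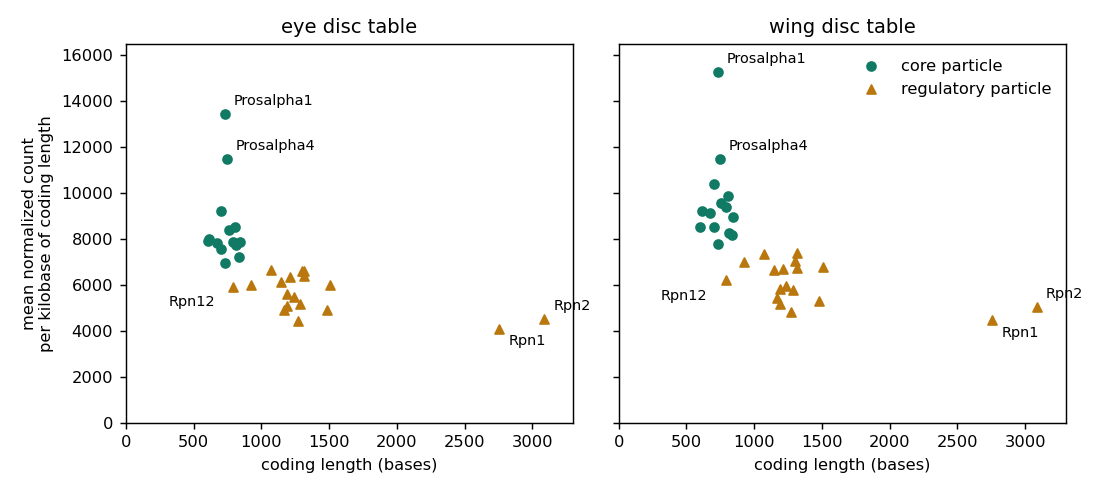
Authors' mean normalised count per kilobase of coding length (vertical axis) against the coding length in bases (horizontal axis) for the 32 standard subunits in the eye (left) and wing disc table (right), with circles for the core and triangles for the regulatory particle. All circles lie above all triangles, and *Rpn12*, the triangle with 792 bases, lies below the core genes of like length.

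To set both tissues side by side each level was taken as a share of the sum of its table. The tables were normalised separately, and tissue, driver line and number of discs per library change together, so these effects cannot be told apart. The sequencing lanes were also divided unequally between the tissues. All 3 wing libraries of nub-Gal4 > UAS-*fuss* ran in lane 5, while each other group had 1 library in lane 5 and 2 in lane 6. The shares of the 32 standard genes were close to equal in both tissues. The ratio of eye over wing ranged from 0.954 for *Prosalpha3* to 1.14 for *Prosalpha4*, with a median of 1.03, and was above 1 for 27 genes, whereas the levels as deposited gave these 32 genes a median ratio of 0.901. Without this scaling the median ratio of all genes was 0.880, so that the scaling moved all genes by 0.19 on the log2 scale. On the same scale the eye disc markers above were between 7.81 and 162 times higher in eye discs. Across 9465 genes with a mean normalised count of at least 10 in both tissues, the scaled ratio had a median of 1.003, quartiles of 0.898 and 1.15 and 5th and 95th percentiles of 0.532 and 3.58. 36.0% of these genes fell inside the range of the 32 subunits. Of 991 genes with a level between those of *Rpn12* and *Rpn2* in eye discs, 48.5% did.

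Within this narrow range the parts of the complex differed little. The median ratio was 1.01 for the alpha ring, 1.003 for the beta ring, 1.05 for the base and 1.04 for the lid. All 9 genes of the base were above 1, from 1.02 for *Rpt2* to 1.11 for *Rpt4*, while *Prosbeta1* (0.976), *Prosbeta7* (0.983), *Prosbeta3* (0.990) and *Rpn11* (0.974) were below 1 together with *Prosalpha3*. Of the 4 genes on the X chromosome *Rpt3* had a ratio of 1.05, *Rpt6* of 1.08, *Rpt4* of 1.11 and *Prosalpha4* of 1.14. The 28 autosomal subunits had a median ratio of 1.02 and ranged up to 1.101, in *Rpn10*. Over all genes of at least 10 the median ratio was 1.01 for 1583 genes of the X chromosome and 1.002 for 7776 genes of the autosomes. The order of the subunits per kilobase was nearly the same in both tissues, with Pearson's r of 0.989 on the log2 scale and Spearman's rho of 0.985 over the 32 genes, whose lengths are shared by both axes.

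**Figure D3:**
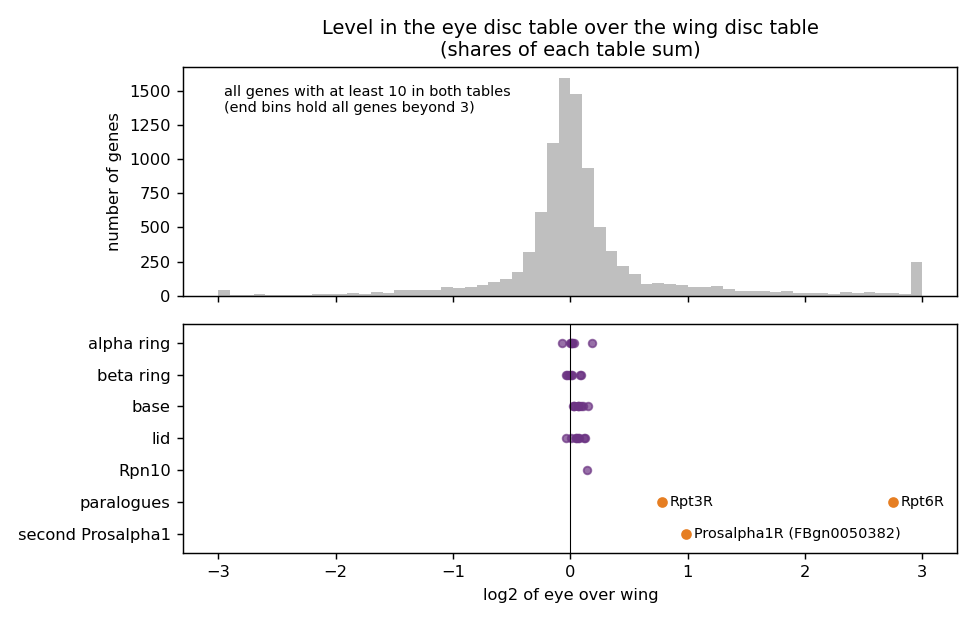
Ratio of the level in eye discs over that in wing discs (horizontal axis, log2), as shares of each table sum. The upper panel counts all 9465 genes with at least 10 in both tables, and the lower panel shows 1 point per standard subunit by part of the complex and, in orange, *Rpt3R*, *Rpt6R* and the second *Prosalpha1* gene. The standard subunits lie between 0.954 and 1.14 on the linear scale (median 1.03, or 0.901 with the levels as deposited), and *Rpt6R*, whose wing level was under 10, lies furthest to the right. *Rpt4R* is beyond the axis and is not drawn.

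The 15 paralogues with a T or an R had low levels beside the standard subunits. Together they came to 0.135% of the summed standard level in eye discs and 0.0687% in wing discs. Their number under a mean normalised count of 10 was 12 in eye discs and 14 in wing discs, with 12 genes under 10 in both. Of these 12, the genes *Prosalpha3T*, *Prosalpha6T*, *Prosbeta4R1*, *Prosbeta4R2*, *Prosbeta5R1* and *Rpn12R* were listed at 0 in both tissues. *Prosalpha4T1* (0.281), *Prosalpha4T2* (0.143) and *Prosbeta5R2* (0.277) had a level above 0 in eye discs and were listed at 0 in wing discs. *Prosbeta2R1* was listed at 0 in eye discs and had 0.119 in wing discs. *Prosbeta2R2* had 2.34 and 1.45. *Rpn13R*, a paralogue of the ubiquitin receptor gene *Rpn13*, had 6.24 and 6.47. Their standard counterparts in the core and in the regulatory particle all stood at 4698 or more. Reads of near-identical copies can be split between them by the quantification, so small values of a paralogue are uncertain.

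**Figure D4:**
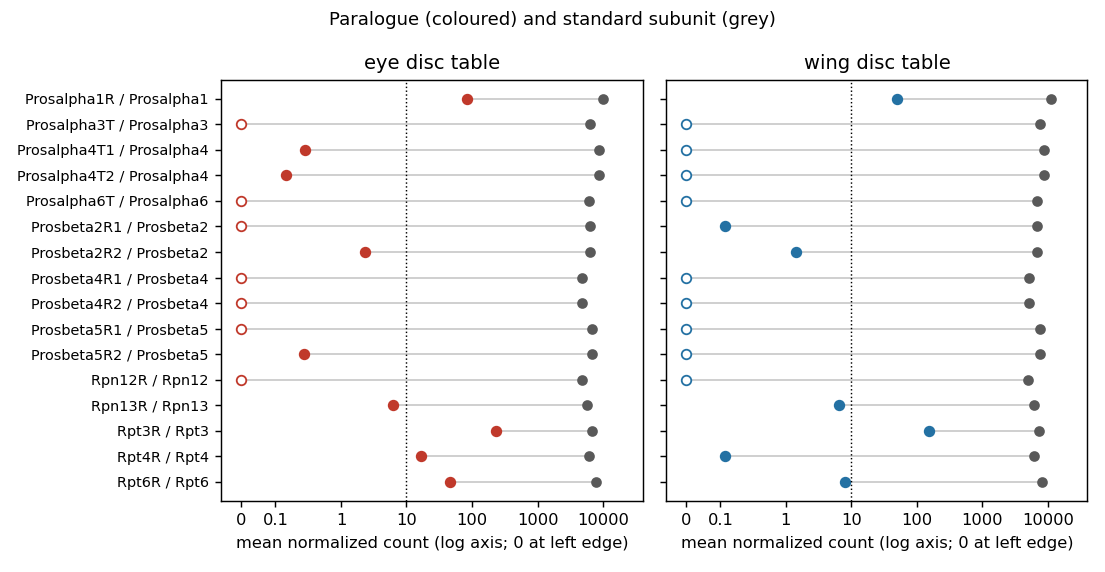
Authors' mean normalised count (horizontal axis, logarithmic, with values of 0 as open circles at the left edge) of each paralogue in colour and of its standard subunit in grey, joined by a line, for the eye (left) and wing disc table (right). The dotted line marks a mean normalised count of 10. Besides the second *Prosalpha1* gene, *Rpt3R*, *Rpt4R* and *Rpt6R* pass it in eye discs and *Rpt3R* alone in wing discs.

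Of the 15 paralogues with a T or an R in the symbol listed, the 3 that reached 10 all belong to the ATPase ring. The alpha ring gene *Prosalpha1R*, listed under a standard symbol and described further below, also reached 10 (84.8 and 48.9). *Rpt3R* (FBgn0037742), on chromosome 3R of BDGP6.54 from 9754735 to 9756510, had a mean normalised count of 233 in eye discs and 155 in wing discs. Per kilobase of coding length this was 3.50% and 2.14% of the level of *Rpt3*, which was 28.6 and 46.6 times higher. As a share of the table sum *Rpt3R* was 1.72 times higher in eye discs. *Rpt6R* (FBgn0039788), on chromosome 3R from 30582198 to 30583697, had 46.7 in eye discs and 7.92 in wing discs, a ratio of 6.73. *Rpt6* stood 163 times above it per kilobase in eye discs. *Rpt4R* (FBgn0036224), on chromosome 3L from 11941912 to 11943485, had 16.6 in eye discs and 0.119 in wing discs. Per kilobase it reached 0.275% of *Rpt4* in eye discs.

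The standard genes of these 3 paralogues had eye over wing ratios between 1.05 and 1.11, smaller than those of the paralogues. In bulk tissue fewer cells of a type and less RNA per cell cannot be told apart. Of 6 male germline markers 1, *bam*, reached 10, with 11.1 in eye discs and 10.5 in wing discs, *aly* was listed at 0 in both, and *can*, *comr*, *Mst87F* and *dj* lay between 0.606 and 4.22 in eye discs and between 0.317 and 3.65 in wing discs. Their summed level was 20.7 in eye discs and 16.0 in wing discs. The general germline markers *vas* and *nos* had 58.4 and 4.796 in the eye pools, and 12.7 and 4.44 in the wing pools. The glial gene *repo* had 985 and 16.3 and *moody* 1137 and 381. The part of these cell types in the levels of *Rpt3R*, *Rpt4R* and *Rpt6R* was not tested. The exons of *Rpt4R* and *Rpt6R* overlap no other gene in BDGP6.54, and those of *Rpt3R* share 20 bases with *Alg12* on the opposite strand.

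The *Prosalpha1* gene lies on chromosome 2R of BDGP6.54 from 7827303 to 7828678, and *Prosalpha1R* lies on the same strand from 7830413 to 7831771, with 1734 bases between them. Both have 732 coding bases in 3 coding exons. *Prosalpha1* was at 9846 in eye discs and 11185 in wing discs, whereas *Prosalpha1R* was at 84.8 and 48.9. *Prosalpha1R* thus held 0.854% (eye) and 0.435% (wing) of the summed level of this pair, and its share of the table was 1.98 times higher in eye discs. How the quantification divided reads between these copies is not given in the sources used here, so the level of *Prosalpha1R* is uncertain, while the sum of both was 9931 and 11234, close to *Prosalpha1* alone.

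The paralogues also differ from the standard subunits in position and structure. With *Prosalpha1R* included there are 16, and 10 of them have fewer coding exons than the standard gene, 6 have as many and 0 have more. *Rpt4R* has 2 coding exons and *Rpt4* has 5. *Rpt3R* and *Rpt6R* have 2 where *Rpt3* and *Rpt6* have 3. *Prosalpha4T1* and *Prosalpha6T* have 1 where *Prosalpha4* and *Prosalpha6* have 3. All 4 standard subunits on the X chromosome, *Prosalpha4*, *Rpt3*, *Rpt4* and *Rpt6*, have a paralogue, and their 5 paralogues all lie on autosomes. Of the 28 autosomal subunits 8 have a paralogue. Of the 16 paralogues 10 lie on another chromosome arm than the standard gene. *Prosbeta4R1* and *Prosbeta4R2* lie next to each other on 2L, from 2653046 to 2653926 and from 2655394 to 2657102, with 1467 bases between them, and both were listed at 0. *Rpn12R* lies on chromosome 3L from 15041631 to 15042570, within *Sytbeta* on the same strand but without shared exons. It was listed at 0 although *Sytbeta* had 169 in eye discs and 2.37 in wing discs. *Rpn13R* lies on the X chromosome from 5131898 to 5132985, within *rg* on the same strand and again without shared exons, and *rg* had 6717 and 7400. The part of *rg* RNA in the level of *Rpn13R* was not tested. Exons of 14 of the 33 standard genes overlap a neighbouring gene, by more than 10% of their bases in *Rpt6* (13.0%, shared with *CG1801*, which had 3.66 and 1.48).

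Genes that work with the proteasome were compared as lists. Of 10 proteasome factors 9 were at 10 or more in both tissues, and *Uch-L5R* was listed at 0. *Ubqn*, which encodes a shuttle receptor, had the highest level of them (8130 and 8775), inside the range of the 32 subunits, and *PI31*, a proteasome regulator, had the lowest level above 0 (2065 and 2256). The eye over wing ratio of the 9 detected factors lay between 0.908 and 1.09. A few more factors were picked after their values were seen. *Sem1*, a small lid subunit whose name the rule does not cover, had 10468 per kilobase in eye discs and 13043 in wing discs, above all 8 lid genes. Before division by length it had 2481 and 3091, below all 8 lid genes, so its rank depends on this step. *Pomp*, which assists the assembly of the core, had 10052 and 11160 per kilobase, inside the range of the alpha ring. Undivided, its level of 4041 and 4486 was below every alpha subunit. *REG*, an activator that binds the core in place of the regulatory particle, had 9318 and 11702 per kilobase. Its level before division by length was 6848 and 8601.

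Of 9 genes of ubiquitin supply and of the segregase that extracts ubiquitylated proteins, 8 matched a symbol and reached 10. *RpS27A*, which encodes ubiquitin fused to a ribosomal protein, was the highest (54548 and 69326), and *Ufd1-like*, a cofactor of the segregase, the lowest (2419 and 2561). Their eye over wing ratios ranged from 0.897 to 1.19. Of the 4 regulators *cnc*, which encodes a transcription factor known in *Drosophila* to act on proteasome genes, was the highest (5838 and 5744), and *Keap1*, the gene of its inhibitor, the lowest (677 and 614). The 4 regulators had eye over wing ratios from 1.12 to 1.26, against 0.954 to 1.14 for the standard subunits.

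The COP9 signalosome, a complex built like the lid that acts on ubiquitin ligases, was less abundant than the lid. Of 9 listed genes 8 matched a symbol, *CSN1a* was listed at 0 and the other 7 ranged from 1527 to 3213 per kilobase in eye discs and from 1706 to 3743 in wing discs, below each of the 8 lid genes. *CSN8* had the lowest level of these 7 (1075 and 1219), and the highest was *CSN1b* in eye discs (2835) and *CSN7* in wing discs (3122). *CSN5*, the relative of *Rpn11* in this complex, was picked after its value was seen and had 2272 and 2778 per kilobase, against 5985 and 7003 for *Rpn11*. For comparison with other large complexes, the upper quartile of the level per kilobase was 1.41 times the lower quartile among the 32 proteasome subunits in eye discs. This ratio was 1.29 among 87 cytosolic and 1.502 among 72 mitochondrial ribosomal protein genes of at least 10, and 2.23 among 16 genes of the vacuolar ATPase. In wing discs the 4 values were 1.52, 1.32, 1.49 and 3.07 in the same order. The median eye over wing ratio was 1.03 for the proteasome, 0.927 for the cytosolic and 0.917 for the mitochondrial ribosomal proteins and 1.06 for the vacuolar ATPase. The sets were not formed alike. The proteasome set left out the paralogues, while the others held every matching symbol of at least 10. These were 87 of 92 cytosolic ribosomal, 72 of 72 mitochondrial ribosomal and 16 of 32 vacuolar ATPase symbols. Single eye over wing ratios reached 3.60 in the cytosolic ribosomal and 4.35 in the vacuolar ATPase set. The differences between complexes were not tested.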

How the data were processed

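The submitters' processing notes name Salmon 1.1.0 and DESeq2 1.30.0, and the methods of the study name tximeta and the *Drosophila* genome release BDGP6.22. Per the file headers the authors gave, for each tissue, the mean normalised count, a signal scaled by their size factors and averaged over 6 libraries. The other columns hold their comparison of *fuss* overexpression with control (log2 fold change, standard error, statistic, p and adjusted p) and were not used. The members, gene lists and alternatives were chosen with earlier results of these data known.

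Sums, shares of the table sum, levels per kilobase, percentiles among genes above 0 and ratios came from numpy 2.4.6 and pandas 2.3.3 under Python 3.11.15 (figures: matplotlib 3.10.9). Coding length was that of the longest annotated coding sequence without the stop codon. Of 17208 gene identifiers 17083 matched the BDGP6.54 annotation, a later release on the same assembly, from which positions, exons and lengths came. Percentiles per kilobase used genes with a coding length. The minimum level was 10. Named were all members and of each related list the highest, the lowest and every gene under 10. Markers were named or given as sums. *Sem1*, *Pomp*, *REG*, *CSN5* and the overlapping neighbours were named after their values were seen. *TER94* and *CSN2* matched no symbol. The scaling was tested on simulated data. Values per library and promoter and protein sequences were not analysed here, and the planned motif searches were not run. The means used here allow no test or interval. Alternatives were other scalings, lengths and minima.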

Additional observations from a re-analysis of the deposited data

How the results depend on the processing

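As all values are means over libraries, no replicate could be left out. No paired analysis was possible because no value per library was used and no result comes from a test. The summed level of the 33 standard genes was 7530 parts in 1000000 of the table sum in eye discs and 7282 in wing discs. It was 10301 and 10109 without the 100 highest genes in the sum, and 7920 and 7498 as a share of levels per kilobase. The median eye over wing ratio of these genes was 1.03, and it was 1.02 without the 100 highest genes and 0.904 with the levels as deposited, which turns its direction. With median ratio scaling it stayed at 1.03. The core over regulatory ratio of 1.36 and 1.504 became 1.2998 and 1.35 with the longest transcript length, 0.881 and 0.887 with no length correction, which turns its direction, and 1.37 and 1.51 without FBgn0050382 (added once the data had been seen). The highest over lowest standard gene per kilobase was 116 in eye discs and 229 in wing discs with FBgn0050382, the lowest. It was 114 and 225 with the longest transcript length, 164 and 319 with no length correction, and 3.30 and 3.43 without FBgn0050382. The number of T and R paralogues under the minimum (12 and 14) was 11 and 12 with a minimum of 5 and 13 and 14 with a minimum of 20.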
